A study of Mus musculus with 7 samples.

Results

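The genes described here are 37 mouse imprinted genes, taken by symbol from a fixed list, out of 24346 genes in the expression table. Imprinted genes are expressed mainly from the maternal or the paternal chromosome. For Gnas, Inpp5f and Blcap this depends on the transcript, and for Ube3a and Grb10 on the cell type. All 37 symbols were found, and 29 of them had a mean of at least 0.5 FPKM (fragments scaled by transcript length and by the library's mapped fragments) over the libraries, as did 14151 genes of the whole table. RNA was sequenced from 7 cultures of primary neurospheres, which are floating colonies grown from dissociated hippocampus, with 1 mouse per culture and 1 library per mouse. Libraries are called WT_ (control) or KO_ (Med23 CKO) with the mouse number. The 3 Med23 CKO mice carried Nestin-CreER and homozygous floxed Med23, a subunit of the Mediator complex that links transcription factors to RNA polymerase II. The 4 controls, labelled wild type, were littermates with floxed Med23 alleles and no Cre. All mice were C57/BL6, were labelled as 2 months old and received tamoxifen by gavage at 200 mg/kg daily for 5 days, with 3 to 4 weeks of recovery. The study's methods place the treatment of the culture mice at a younger age, and the preparation of the cultures at 2 months. Nestin-driven Cre can also act in endothelial cells, and cells that escaped recombination may remain in such cultures, which was not measured here.

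Genomic imprinting marks the maternal and paternal copies of a gene with different DNA methylation in the germ line, at imprinting control regions, and keeps that difference in the tissues of the offspring. Many imprinted genes lie in clusters in which protein-coding genes from 1 parental copy sit beside a long noncoding RNA from the other. Several act on growth and on stem cell maintenance, and Dlk1, Igf2, Peg3 and Cdkn1c are known regulators of neural or other stem cells. The FPKM values here sum both parental copies of a gene, so they give no reading of which copy was transcribed. In such bulk cultures, fewer cells of a type and less RNA per cell cannot be told apart.

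Neural stem cell markers were present in every library. Nes (nestin) lay between 84.1 and 186 FPKM in the controls and between 61.1 and 241 FPKM in the Med23 CKO cultures, while the neuroblast marker Dcx did not pass 2.80 FPKM in any library. Markers of other neural lineages were also present. Over the libraries, 10 neuron and neuroblast markers summed to 80.2 to 194 FPKM, and 8 astrocyte markers to 384 to 969 FPKM. The 10 oligodendrocyte lineage markers summed to 2241 to 4861 FPKM, against 1677 to 3749 FPKM for 10 neural stem and progenitor markers. Med23 itself was 10.3, 12.9, 11.4 and 10.1 FPKM in the control cultures WT_116, WT_213, WT_215 and WT_220, and 9.97, 9.27 and 8.12 FPKM in the CKO cultures KO_117, KO_214 and KO_218. Every CKO value was below every control value, but the highest CKO value missed the lowest control value by only 0.097 FPKM. The log2 fold change was -0.26 (SE 0.18, exact permutation p = 0.0571, limma unadjusted p = 0.175 and adjusted p = 0.9999). These values cover the whole gene rather than its deleted exons. The CKO culture KO_214 stood apart. Its 16 microglia and macrophage markers summed to 3724 FPKM against 79.7 to 499 in the other libraries, its 12 mural and fibroblast markers to 558 against 17.6 to 150, and its 25 cell cycle genes to 345 against 584 to 2337. Xist, which coats the inactive X chromosome of females, was 91.3 FPKM in WT_220, 111 in KO_218 and at most 0.565 in the other 5.

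The imprinted genes covered a wide range of expression levels. In the controls, 5 of the 37 had a mean of at least 50 FPKM, 14 were between 10 and 50, 6 were between 1 and 10, and 12 were under 1. Gnas, which encodes the stimulatory G protein alpha subunit, was the highest, at 597, 678, 895 and 951 FPKM in WT_116, WT_213, WT_215 and WT_220 and at 930, 727 and 549 FPKM in KO_117, KO_214 and KO_218. Its control mean ranked 80 among all genes. Neuronatin (Nnat), a small membrane protein of the endoplasmic reticulum, and Mest, an alpha/beta hydrolase family protein, ranked 482 and 971. Together the 37 genes made up between 0.227% of all FPKM, in KO_214, and 0.346%, in WT_215. They also varied more among the control cultures than genes did in general, with a median SD of 0.43 on the log2 scale for the 29 against 0.31 for all genes tested.

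**Figure D1:**
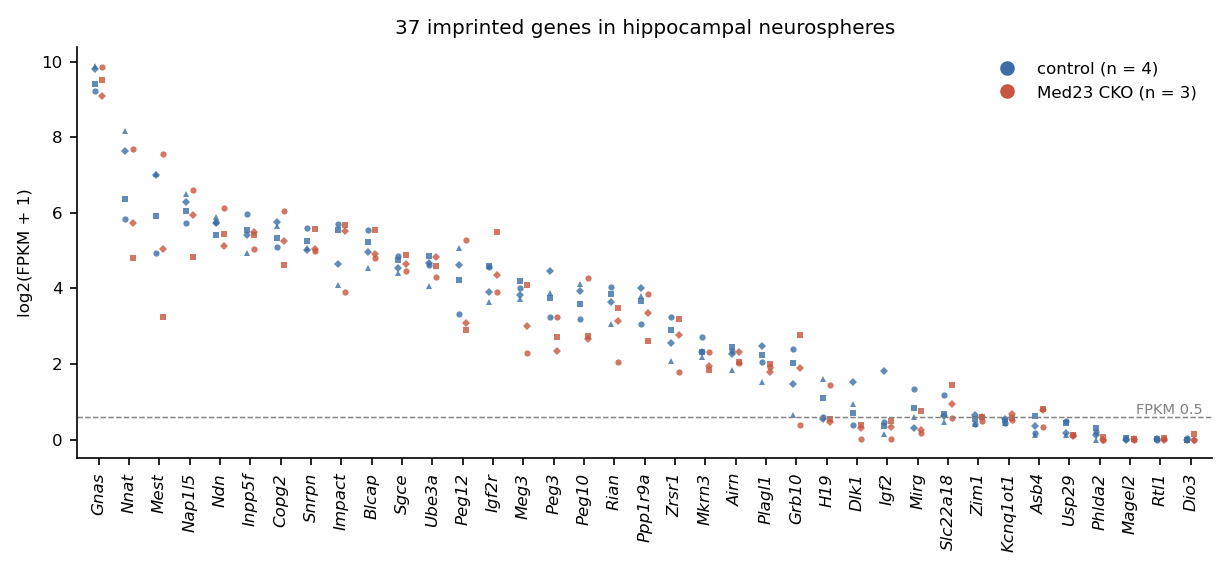
FPKM of the imprinted genes in each library on a log2(FPKM + 1) axis, 1 point per library, with 4 control libraries in blue, 3 Med23 CKO libraries in red and genes ordered by their control mean. The dashed line marks 0.5 FPKM, Gnas is the highest gene in every library, and the blue and red points overlap for all tested genes but Peg3.

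The main question was whether loss of Med23 moved imprinted genes in these cultures. No member differed between the groups at an adjusted p under 0.05, in limma on log2(FPKM + 1) with Benjamini-Hochberg adjustment over all genes tested, and the share of all genes called was 0%. At an unadjusted p under 0.05, 1 member was lower in the Med23 CKO cultures (Peg3), where 0.996% of all genes were lower, and 0 members were higher, where 0.502% of all genes were. In the exact permutation test run gene by gene, 0 members reached an unadjusted p under 0.05, where 0.806% of all genes were lower and 0.459% higher. The groups did not overlap, with the CKO lower, in 1 member (Peg3 again) and in 1.53% of all genes. They did not overlap, with the CKO higher, in 0 members and in 0.784% of all genes. The group mean was lower in the CKO for 22 of the 29 and higher for 7, while 56.2% of all genes had the lower mean. Of all genes called by unadjusted p, 71 had the higher CKO mean and 141 the lower, which became 102 and 123 after quantile normalization. The median log2 fold change was -0.16 for the members and -0.03 for all genes tested. By parental origin, 14 of 16 paternally expressed members tested had the lower mean, with a median of -0.34, as did 6 of 9 maternally expressed members, with a median of -0.15. Dlk1, Igf2 and Mirg entered these counts only through their control levels.

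Which members fell at an unadjusted p under 0.05 depended on single libraries. Without KO_117, 5 members were lower (Mest, Nnat, Peg10, Peg12 and Peg3), with 2.90% of all genes lower at that level. Without KO_214, 3 were lower (Meg3, Rian and Peg3), with 1.45% of all genes lower. Without KO_218, 0 members were lower, with 0.495% of all genes lower. No member was higher at an unadjusted p under 0.05 in any of these fits, where 2.50%, 0.551% and 0.982% of all genes were higher.

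**Figure D2:**
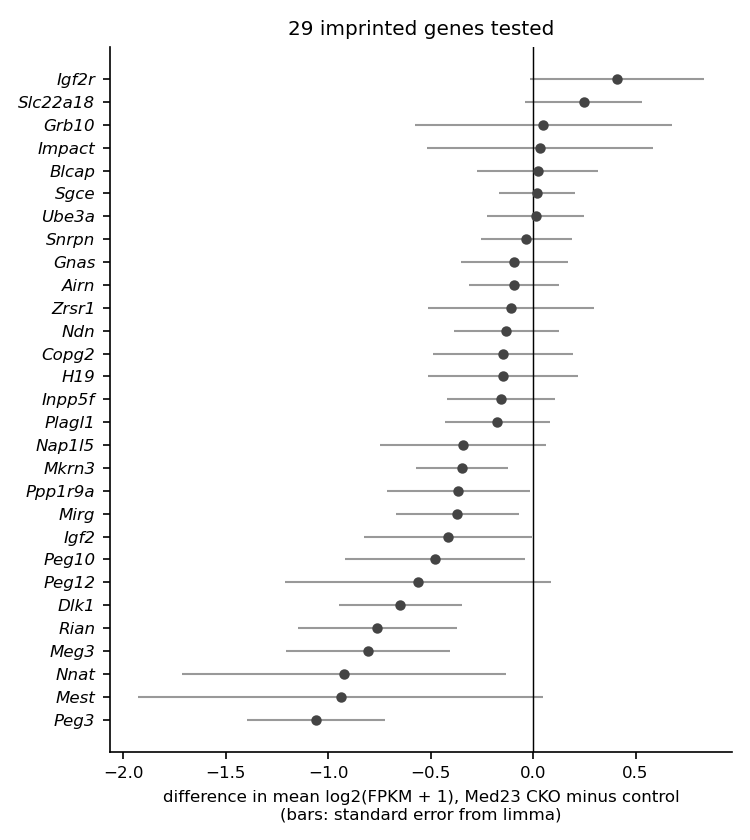
Log2 fold change of each tested imprinted gene, Med23 CKO against control, as the difference of mean log2(FPKM + 1), with bars of 1 SE either side from limma and genes ordered by value. Peg3 is at -1.06 and Igf2r at 0.41, the lowest and highest of the 29.

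Peg3 had the lowest fold change of the members. It encodes a zinc finger protein that is expressed from the paternal copy, and it lies on chromosome 7 at 6703892 to 6730462 (GRCm38.p6), head to head with Usp29. Its level was 8.55, 12.4, 20.8 and 13.7 FPKM in WT_116, WT_213, WT_215 and WT_220, and 8.54, 5.61 and 4.03 FPKM in KO_117, KO_214 and KO_218. All 3 CKO values were below all 4 control values, but the highest CKO value missed the lowest control value by only 0.0087 FPKM. The log2 fold change was -1.06 (SE 0.34, exact permutation p = 0.0571, limma adjusted p = 0.9999). Its unadjusted limma p was under 0.05 with each library left out in turn except KO_218, without which the fold change was -0.84. Its correlation with the mean level of the cell cycle genes over the 7 libraries, r = 0.53, did not pass the test (exact permutation, adjusted p = 0.310). The other genes of the cluster were near the detection floor. Usp29, a ubiquitin-specific protease gene, was 0.405, 0.367, 0.134 and 0.0883 FPKM in the controls and 0.0922, 0.0966 and 0.0665 FPKM in the CKO cultures, so WT_220 fell among the CKO values. Zim1, a maternally expressed zinc finger gene, lay between 0.323 and 0.561 FPKM in the controls and between 0.399 and 0.509 in the CKO cultures. The promoter window of Peg3 is printed because the Peg3 and Usp29 windows, each mostly upstream of the RefSeq start, share 263 bases, and because Peg3 was the member whose groups did not overlap. It lies at chr7:6730370-6730669, minus strand, holds 13 CG dinucleotides and has no copy of TGCCGC, the hexamer that the imprint-keeping protein ZFP57 binds when methylated.
Peg3: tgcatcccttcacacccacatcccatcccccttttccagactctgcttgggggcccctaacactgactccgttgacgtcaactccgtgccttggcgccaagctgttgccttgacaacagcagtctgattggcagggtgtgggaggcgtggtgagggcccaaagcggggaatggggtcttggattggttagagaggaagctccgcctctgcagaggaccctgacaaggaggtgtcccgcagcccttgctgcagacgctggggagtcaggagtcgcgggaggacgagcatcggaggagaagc

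The Dlk1-Dio3 cluster on chromosome 12 pairs paternally expressed protein-coding genes (Dlk1, Rtl1, Dio3) with maternally expressed noncoding RNAs (Meg3, Rian, Mirg). None of its 4 tested members passed the test. Each had a lower mean in the CKO, which for Dlk1 and Mirg was fixed by the filter, since they reached 0.5 FPKM only through the controls. Meg3, the first of the maternal noncoding RNAs, was 15.1, 17.2, 13.3 and 12.1 FPKM in WT_116, WT_213, WT_215 and WT_220, and 3.87, 16.1 and 7.08 FPKM in KO_117, KO_214 and KO_218. Thus 2 of the CKO cultures lay below every control and KO_214 lay among them. The log2 fold change was -0.81 (SE 0.40, exact permutation p = 0.143), and it rested on single CKO libraries. Without KO_214 it was -1.29, at an unadjusted limma p of 0.00275, and without KO_117 it was -0.38, at 0.282 in limma. Rian, which hosts small nucleolar RNAs, was 15.5, 13.6, 11.5 and 7.35 FPKM in the controls and 3.18, 10.1 and 7.80 FPKM in the CKO cultures. Its log2 fold change was -0.76 (SE 0.39, exact permutation p = 0.143), and its groups overlapped through WT_220. It was -0.35 without KO_117 and -1.05 without KO_214. Mirg, a microRNA host, was 1.54, 0.777, 0.226 and 0.510 FPKM in the controls and 0.12, 0.695 and 0.195 FPKM in the CKO cultures, a log2 fold change of -0.37 (SE 0.30).

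Dlk1 encodes a membrane and secreted ligand of the EGF-like family that is known to act in postnatal neurogenesis. It was low throughout, at 0.295, 0.614, 1.89 and 0.927 FPKM in WT_116, WT_213, WT_215 and WT_220, and at 0.0122, 0.298 and 0.248 FPKM in KO_117, KO_214 and KO_218. KO_214 and WT_116 met at 0.298 and 0.295, and otherwise the groups did not overlap. The log2 fold change was -0.65 with a pseudocount of 1 (SE 0.30, exact permutation p = 0.0857) and -1.80 with a pseudocount of 0.1, which weighs low values more. Dlk1 reached the filter's 0.5 FPKM only through the controls, so these values are no test of its direction. Rtl1, a retrotransposon-derived gene, did not pass 0.0359 FPKM in any library. Dio3, the thyroid hormone deiodinase, was above 0 only in WT_116, at 0.0249 FPKM, and KO_214, at 0.116 FPKM, and was listed at 0 in the other 5. Begain, a gene beside the cluster at 109032181 to 109068242 that was not on the list of 37, was 3.67, 3.66, 4.29 and 5.66 FPKM in the controls and 0.793, 3.63 and 1.57 FPKM in the CKO cultures. It did not overlap between groups, with KO_214 just under the lowest control, at a log2 fold change of -0.93 (SE 0.34, exact permutation p = 0.0286, the smallest that 4 against 3 libraries can give, limma adjusted p = 0.9999).

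**Figure D3:**
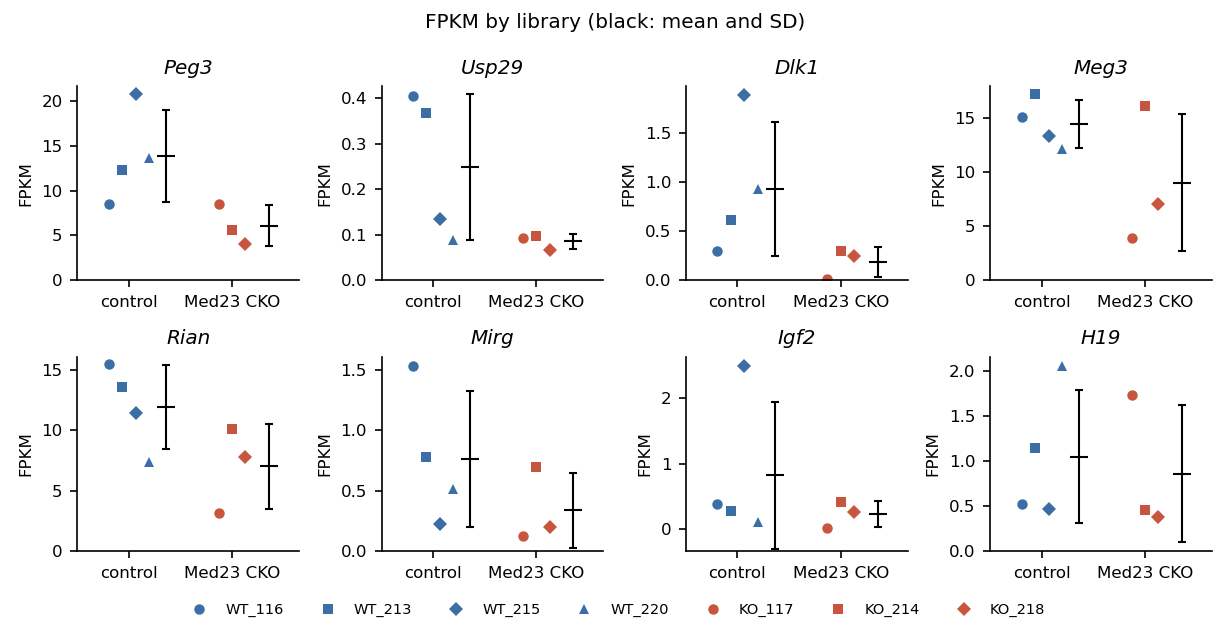
FPKM in each of the 7 libraries for Peg3, Usp29, Dlk1, Meg3, Rian, Mirg, Igf2 and H19, with control libraries in blue, Med23 CKO libraries in red and the mean and SD of each group in black. Peg3 points of the CKO all lie at or below 8.54 FPKM, and for Meg3 KO_214 sits with the controls while KO_117 is the lowest.

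Igf2 and H19 share an imprinting control region and enhancers on chromosome 7. Igf2, a growth factor expressed from the paternal copy, was 0.390, 0.280, 2.50 and 0.114 FPKM in WT_116, WT_213, WT_215 and WT_220, and 0.0134, 0.414 and 0.256 FPKM in KO_117, KO_214 and KO_218. WT_215 alone was over 0.5 FPKM, and it also had the highest sum of 8 ependyma and choroid plexus markers, 647 FPKM against 10.9 to 72.2 in the other 6. The part of such cells in the Igf2 value was not tested. The log2 fold change was -0.42 (SE 0.41) and became -0.046 without WT_215. H19, the maternal noncoding RNA, was 0.523, 1.15, 0.463 and 2.06 FPKM in the controls and 1.74, 0.457 and 0.379 FPKM in the CKO cultures, a log2 fold change of -0.15 (SE 0.36) that was 0.067 without WT_220.

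Igf2r encodes the receptor that takes IGF2 to the lysosome, and in most mouse tissues it is expressed from the maternal copy, while the paternal copy makes the antisense RNA Airn. Igf2r was 22.7, 23.2, 14.1 and 11.5 FPKM in WT_116, WT_213, WT_215 and WT_220, and 13.9, 44.4 and 19.6 FPKM in KO_117, KO_214 and KO_218. The log2 fold change of 0.41 (SE 0.42, exact permutation p = 0.486), the highest among the members, rested on KO_214, without which it was -0.051. Airn lay between 2.57 and 4.49 FPKM in the controls and between 3.07 and 3.98 in the CKO cultures, a log2 fold change of -0.09 (SE 0.22).

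Several members showed a larger spread between cultures of the same group than between the groups. Mest was 29.8, 59.2, 128 and 130 FPKM in WT_116, WT_213, WT_215 and WT_220, and 187, 8.52 and 32.1 FPKM in KO_117, KO_214 and KO_218. The CKO cultures held both the highest and the lowest value of the series, and the log2 fold change of -0.94 (SE 0.99) was 0.077 without KO_214 and -2.07 without KO_117. Nnat followed nearly the same order of cultures, at 55.7, 81.4, 198 and 286 FPKM in the controls and 204, 27.2 and 52.0 FPKM in the CKO cultures, with a log2 fold change of -0.92 (SE 0.79) that was -0.29 without KO_214 and -1.73 without KO_117. Nap1l5, an intronless gene of the nucleosome assembly protein family, was 51.8, 64.8, 77.5 and 88.8 FPKM in the controls and 95.6, 27.7 and 60.3 FPKM in the CKO cultures. These 3 genes were highest in KO_117, WT_215 and WT_220 and lowest in KO_214.

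The cell cycle genes had a like order of cultures. The mean log2 level of the 25 cell cycle genes was 3.88, 4.67, 5.63 and 5.72 in WT_116, WT_213, WT_215 and WT_220, and 6.11, 2.93 and 4.71 in KO_117, KO_214 and KO_218. Over the 7 libraries, 7 members rose with it at an adjusted p under 0.05 (exact permutation, Benjamini-Hochberg over 58 relations): Copg2 (r = 0.98), Mest (0.98), Nap1l5 (0.97), Ppp1r9a (0.95), Nnat (0.94), Peg12 (0.90) and Peg10 (0.85). Another 8 members fell with it: Slc22a18 (r = -0.95), Igf2r (-0.95), Sgce (-0.94), Grb10 (-0.94), Zrsr1 (-0.90), Snrpn (-0.90), Blcap (-0.88) and Impact (-0.87). An absolute r over 0.8 was held by 51.7% of the members and by 37.6% of all genes tested, so much of the table moved along this axis. For Mest, r was 0.93 without KO_117 and KO_214, the 2 libraries farthest from the median, with a Spearman rho of 0.96 over all 7. For Igf2r, r was -0.91 without them and rho was -0.93.

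The microglia and macrophage markers ran the other way, with r = -0.94 between the means of both lists, so their parts in these relations cannot be told apart. Igf2r rose with these markers (r = 0.99, exact permutation, adjusted p = 0.0115) and Nap1l5 fell (r = -0.97, adjusted p = 0.0147 by the same test). In all, 7 members rose and 7 fell with them, and 48.3% of the members and 31.8% of all genes had an absolute r over 0.8. Of the 29 relations that had passed over both lists, 0 to 27 passed again with a library left out, and every one kept its sign. After quantile normalization, Slc22a18 had r = -0.59 with the cell cycle list and 0.48 with the microglia list. Neither passed (exact permutation, adjusted p = 0.275 and 0.382), nor did Impact with either list or Zrsr1 with the microglia list. All other relations passed again after that normalization. The fewest passed without KO_214 (0), WT_215 (7) and KO_117 (10). Without KO_214 the absolute r of the 29 was still between 0.63 and 0.98, with a median of 0.90, and the lowest adjusted p by exact permutation over 6 libraries was 0.0537. Peg3, Meg3, Rian, Dlk1, Igf2, Mirg, Inpp5f, Ube3a, Airn, Plagl1, Mkrn3, Ndn, H19 and Gnas passed the threshold with neither list. With 7 libraries, not passing does not show that a gene varied apart from the lists.

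**Figure D4:**
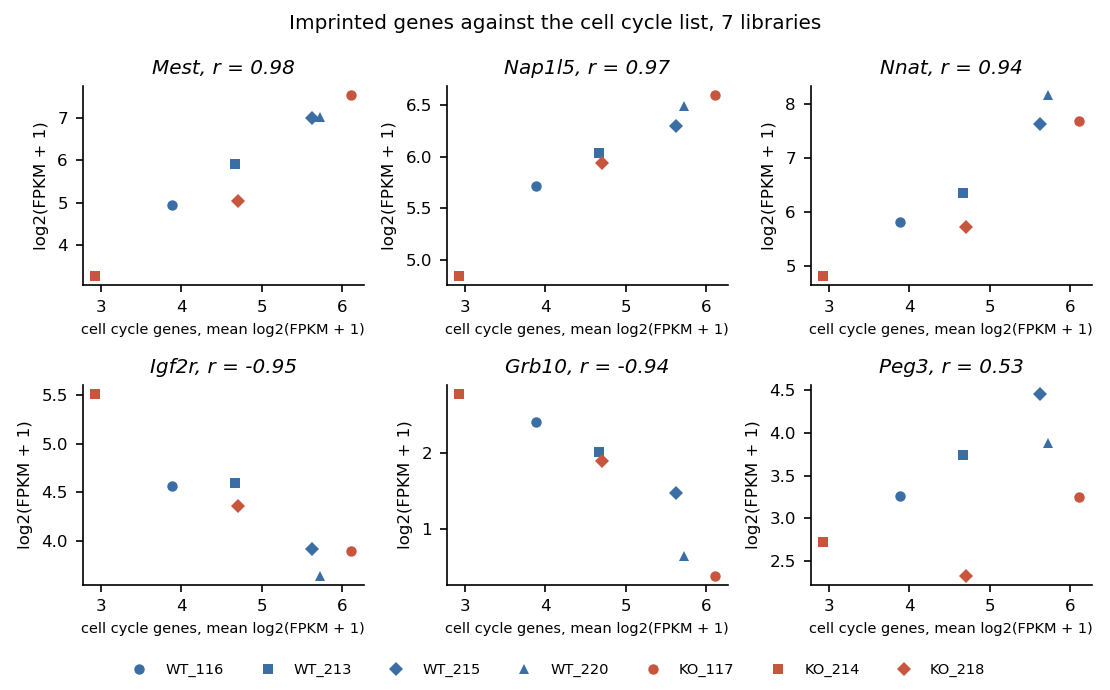
Level of Mest, Nap1l5, Nnat, Igf2r, Grb10 and Peg3, as log2(FPKM + 1), against the mean log2 level of 25 cell cycle genes in the same library, 1 point per library, control in blue and Med23 CKO in red, on axes that do not start at 0. Mest rises along the axis (r = 0.98) and Igf2r falls (r = -0.95), while Peg3 does not pass the test (r = 0.53).

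**Figure D5:**
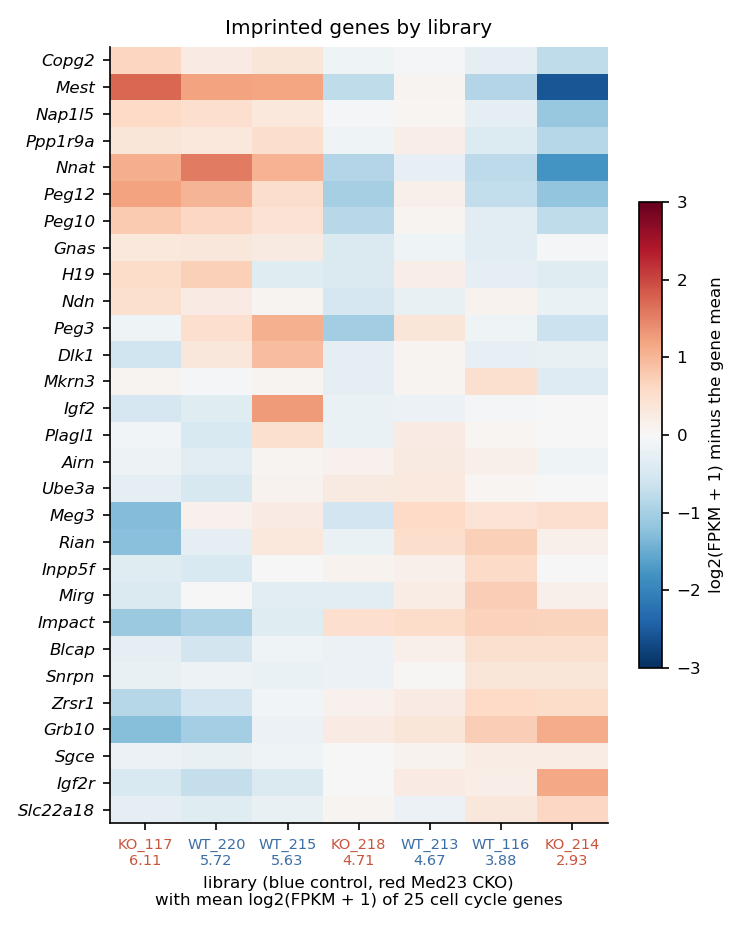
Log2(FPKM + 1) of each tested imprinted gene minus its mean over the 7 libraries, with libraries as columns ordered by their mean level of cell cycle genes and genes as rows ordered by their correlation with it. Genes such as Mest and Nnat are lowest in KO_214, where Igf2r and Grb10 are highest.

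The promoter windows of Mest, Nnat and Nap1l5 are printed because these 3 paternally expressed genes were among those most closely correlated with the cell cycle genes, a choice made after their values were seen. Capitals mark the hexamer TGCCGC, or GCGGCA where it lies on the other strand. The RefSeq windows were searched on both strands. The hexamer was found in 11 of 47 member windows (23.4%) and in 3813 of 32851 windows in the table (11.6%). Windows of alternative starts were counted separately, among them 2 Mest windows that nearly coincide. By gene, 10 of the 32 members with a window held the hexamer. The members' windows also held more CG dinucleotides, with a median of 13 against 7. The Mest window is chr6:30737800-30738099 on the plus strand and has 2 copies, the Nnat window is chr2:157559828-157560127 on the plus strand and has 1, and the Nap1l5 window is chr6:58907077-58907376 on the minus strand and has 2. Mest also has a nearly identical window that starts at chr6:30737803, with 2 copies too, and an upstream start whose window has 0 copies.
Mest: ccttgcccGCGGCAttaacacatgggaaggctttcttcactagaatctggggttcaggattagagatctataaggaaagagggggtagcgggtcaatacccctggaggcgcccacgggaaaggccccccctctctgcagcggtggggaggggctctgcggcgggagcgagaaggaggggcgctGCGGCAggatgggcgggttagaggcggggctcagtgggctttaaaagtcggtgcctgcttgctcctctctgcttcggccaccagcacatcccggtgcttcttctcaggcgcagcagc
Nnat: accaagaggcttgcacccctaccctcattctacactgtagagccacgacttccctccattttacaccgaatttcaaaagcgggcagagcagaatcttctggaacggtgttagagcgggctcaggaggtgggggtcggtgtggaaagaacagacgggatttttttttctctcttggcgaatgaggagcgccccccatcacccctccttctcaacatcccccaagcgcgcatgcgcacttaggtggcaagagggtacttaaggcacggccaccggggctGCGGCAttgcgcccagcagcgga
Nap1l5: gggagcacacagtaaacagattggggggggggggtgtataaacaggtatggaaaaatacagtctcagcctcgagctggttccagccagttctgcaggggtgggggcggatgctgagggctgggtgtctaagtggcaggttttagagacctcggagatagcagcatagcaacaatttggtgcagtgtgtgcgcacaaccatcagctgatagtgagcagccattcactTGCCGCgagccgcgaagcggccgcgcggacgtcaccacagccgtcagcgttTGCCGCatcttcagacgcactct

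Each of Mest, Nnat and Peg10 has a close neighbour, and the 3 pairs did not vary in the same way. Mest and Copg2, which encodes a coatomer subunit, moved together (r = 0.98, rho = 0.96, exact permutation, adjusted p = 0.00397 over 10 pairs). They overlap tail to tail and share 912 exon bases on opposite strands, 23.1% of Mest and 17.8% of Copg2, and the library kit did not mark strand, so reads there could not be told apart. Copg2 was 33.1, 39.6, 53.0 and 49.2 FPKM in WT_116, WT_213, WT_215 and WT_220, and 65.1, 23.7 and 37.5 FPKM in KO_117, KO_214 and KO_218. Nnat lies inside the transcribed region of Blcap, and the pair ran in opposite directions without passing the adjusted threshold (r = -0.83, exact permutation, adjusted p = 0.0906). Peg10, a retrotransposon-derived gene, and Sgce, which encodes epsilon-sarcoglycan, start close together on opposite strands and both are paternally expressed. They also ran in opposite directions (r = -0.77, exact permutation, adjusted p = 0.117). Mest and Copg2 both rose with the cell cycle genes (r = 0.98 each). Nnat and Peg10 rose with those genes (0.94 and 0.85), while Blcap and Sgce fell (-0.88 and -0.94). Whether the pairs varied together apart from that order of cultures, or more closely than other pairs of genes, was not tested.

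Peg10 was 8.16, 11.1, 14.2 and 16.4 FPKM in WT_116, WT_213, WT_215 and WT_220, and 18.5, 5.65 and 5.38 FPKM in KO_117, KO_214 and KO_218, so KO_117 was above and the other CKO cultures below every control. Sgce stayed between 20.4 and 28.3 FPKM in all libraries, with a log2 fold change of 0.02 (SE 0.19). Ppp1r9a, which encodes the actin-binding neurabin, was between 7.35 and 15.1 FPKM in the controls and between 5.14 and 13.4 in the CKO cultures. Asb4, a suppressor of cytokine signaling box gene from the same cluster, was under the test's level, at 0.0877 to 0.542 FPKM in controls and 0.265 to 0.758 FPKM in CKO cultures. Within the Dlk1-Dio3 cluster, Meg3 and Rian moved together over the libraries (r = 0.91, rho = 0.79, exact permutation, adjusted p = 0.0397), but r was 0.66 without the 2 libraries farthest from the median. Igf2r and Airn, whose transcripts overlap, had r = 0.30, and Igf2 and H19 had r = -0.54, neither of which passed.

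The Prader-Willi cluster on chromosome 7 is expressed from the paternal copy except for Ube3a, a ubiquitin ligase gene that is maternal in neurons. No member of it passed the test. Ndn, which encodes the growth suppressor necdin, was 52.6, 41.7, 52.0 and 57.8 FPKM in WT_116, WT_213, WT_215 and WT_220, and 68.4, 42.2 and 34.0 FPKM in KO_117, KO_214 and KO_218. The difference for Ndn was -0.13 on the log2 scale (SE 0.26). Peg12 had the widest spread in the cluster, from 9.04 to 32.9 FPKM in the controls and from 6.40 to 37.9 FPKM in the CKO cultures, the KO_117 value being the highest. Snrpn, a spliceosome protein gene, was between 30.7 and 47.1 FPKM in all libraries (log2 fold change -0.03, SE 0.22), and Ube3a was between 15.8 and 28.1 FPKM (0.01, SE 0.24). Mkrn3, a ring finger protein gene, was 3.55 to 5.57 FPKM in the controls and 2.60 to 4.01 in the CKO cultures, a log2 fold change of -0.35 (SE 0.22). Magel2 did not pass 0.0296 FPKM in any library. Snrpn shares exon bases with Snurf on the same strand, and Ube3a shares 8.74% with the noncoding RNA Snhg14, so both values may include reads of those genes.

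Of the Kcnq1 cluster, only Slc22a18, a membrane transporter gene, was tested, at 0.382 to 1.26 FPKM in controls and 0.478 to 1.74 FPKM in CKO cultures, with the highest value in KO_214. The noncoding RNA Kcnq1ot1 was 0.347 to 0.462 FPKM in the controls and 0.442 to 0.609 FPKM in the CKO cultures, and the growth regulator Phlda2 did not pass 0.241 FPKM. The remaining members are each the only gene of the list at their locus. Zrsr1 shares 9.17% of its exon bases with Commd1 and Gnas 8.83% with Nespas, each on the opposite strand. Both values may therefore include reads of those genes. Grb10, a growth-restraining adaptor of insulin and IGF receptors, was 4.31, 3.05, 1.78 and 0.566 FPKM in WT_116, WT_213, WT_215 and WT_220, and 0.310, 5.84 and 2.73 FPKM in KO_117, KO_214 and KO_218. Impact, a translation regulator gene, followed nearly the same order, from 16.1 to 51.4 FPKM in the controls and from 14.0 to 50.2 in the CKO cultures. Plagl1, a zinc finger gene, stayed between 1.90 and 4.53 FPKM, Inpp5f, a phosphatase gene, between 29.6 and 62.0 FPKM, and Zrsr1, a splicing factor-related gene, between 2.46 and 8.42 FPKM. The log2 fold changes of Grb10, Impact, Plagl1, Inpp5f, Zrsr1 and Gnas were 0.05, 0.03, -0.17, -0.16, -0.11 and -0.09, each within 1 SE of 0 (SE 0.63, 0.55, 0.26, 0.26, 0.41 and 0.26).

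Of 59 further imprinted genes outside the list, 41 were tested, 21 with a higher and 20 with a lower mean in the CKO, and their median log2 fold change was 0.02. At an unadjusted p under 0.05, 1 of them was lower (Begain, beside the Dlk1-Dio3 cluster) and 0 were higher, where 0.996% of all genes were lower and 0.502% higher. Begain alone among the 41 had groups that did not overlap, as did 2.32% of all genes in either direction. Its unadjusted p rose over 0.05 with WT_215, WT_220, KO_117 or KO_218 left out.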

How the data were processed

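The authors made the libraries with a NEBNext Ultra RNA kit, which does not mark strand, sequenced them on an Illumina HiSeq, trimmed adapters with cutadapt, aligned the reads to mouse genome build mm10 with TopHat and quantified genes with Cuffdiff. They deposited FPKM per gene for 7 libraries, 4 control and 3 Med23 CKO. The deposited table also holds the authors' log2 fold changes, test statistics, p-values and q-values, which were not used, and 0 columns of other samples. The paper gives 3 samples per group for its RNA-seq. From its own Cuffdiff comparison it names Peg3 and Igf2 among the genes downregulated without Med23. Low FPKM values showed no whole-read steps, so the depth behind each value is unknown and no count test was possible.

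Genes whose FPKM averaged 0.5 or more were tested with limma 3.58.1 in R 4.3.3 (trend, two-sided) on log2(FPKM + 1), with Benjamini-Hochberg adjustment over 14151 genes. Fold changes are on that scale, which understates changes of low genes. Single values were tested by exact permutation of the 7 libraries over 35 arrangements (two-sided, smallest p 0.0286), and correlations by exact permutation of pairings, with Pearson's r printed unless rho is named. The correlations with cell cycle and microglia genes were added after the values were seen. The members and gene lists were chosen with earlier results of these data known. All 37 members are named, and genes of the other lists where their unadjusted p was under 0.05 or their groups did not overlap. Alternatives were another pseudocount, filter, normalization, limma variant or covariate (the first digit of the mouse number, Xist), and each library left out. The scripts were tested on simulated data. Positions and promoter windows came from RefSeq (GRCm38.p6) and exon overlaps from GENCODE M21. A promoter window was held for 32 members. Each library is from 1 mouse, so p-values measure the spread between cultures.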

Additional observations from a re-analysis of the deposited data

How the results depend on the processing

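No member passed an adjusted p under 0.05, and none was higher at an unadjusted p under 0.05, in any alternative fit. Between 0.318% and 2.50% of all genes were higher at that unadjusted level in those fits. The count of members lower at an unadjusted p under 0.05 was 1 (0.996% of all genes), and it was 2 with a pseudocount of 0.1 (Peg3 and Dlk1, with 1.03% of all genes lower), 6 with array weights (Meg3, Mkrn3, Peg10, Peg12, Peg3 and Rian, with 6.27% of all genes lower), 0 by exact permutation (0.806% of all genes), and 0 to 5 with each library left out (0.495% to 2.90% of all genes). Dlk1 was also counted without WT_116. It reached the filter only through the controls, so its place in these counts is no test of its direction. The estimation of array weights stopped before it converged, so its values carry little weight. Members whose groups did not overlap numbered 1 (2.32% of all genes in either direction), 2 after quantile normalization (2.67%), and 1 to 6 with a library left out, the 6 being without KO_117, where 17.3% of all genes did not overlap. The median log2 fold change of members was -0.16, -0.35 with array weights, and -0.31 to -0.15 with a library left out. Neighbour pairs past the adjusted threshold numbered 2, and 1 to 4 with a library left out. The sign held in 26 of 29 members in every fit to all 7 libraries, and in 14 of 29 with each library left out. It turned for Grb10 with a pseudocount of 0.1 (-0.10), for Blcap (-0.14) and Sgce (-0.0067) with array weights, and for the Igf2r and Airn correlation after quantile normalization (-0.23). With a library left out, log2 fold changes that turned ranged from -0.21 to 0.18 for Blcap, -0.51 to 0.20 for Copg2, -0.28 to 0.10 for Gnas, -0.49 to 0.70 for Grb10, -0.46 to 0.067 for H19, -0.051 to 0.75 for Igf2r, -0.29 to 0.60 for Impact, -0.33 to 0.013 for Inpp5f, -2.07 to 0.077 for Mest, -0.74 to 0.13 for Nap1l5, -0.41 to 0.084 for Ndn, -0.085 to 0.12 for Sgce, -0.22 to 0.084 for Snrpn, -0.15 to 0.15 for Ube3a and -0.41 to 0.29 for Zrsr1, and r for Igf2r and Airn from -0.088 to 0.89. Of all genes called by unadjusted p, 71 had the higher CKO mean and 141 the lower, against 195 and 273 without the filter and 193 and 887 with array weights. The causes were not tested. No paired analysis was possible because the groups share no replicate numbers. With 4 against 3 libraries of unknown depth, small changes and genes under 0.5 FPKM could not be assessed. Large changes could go uncalled too. Over all genes tested, log2 fold changes ran from -2.87 to 4.05, and 0 genes passed an adjusted p under 0.05 in limma.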

Other observations

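The 25 genes known to set or keep imprints, among them DNA methyltransferases and zinc finger proteins, gave no call between the groups. Of these, 22 were tested, 18 with a lower and 4 with a higher mean in the Med23 CKO cultures, at a median log2 fold change of -0.13 and a range of -0.46 to 0.047. In that test, 0 had an unadjusted limma p under 0.05 or groups that did not overlap. Over all genes, 0.996% were lower and 0.502% higher at that level, and 2.32% did not overlap.

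Of 15 genes of IGF2 signaling (receptors, binding proteins and adaptors), 13 were tested, 9 with a higher mean in the CKO. Igfbp4, which encodes a secreted binding protein of insulin-like growth factors, was 29.7, 50.5, 62.5 and 80.1 FPKM in WT_116, WT_213, WT_215 and WT_220, and 251, 102 and 88.3 FPKM in KO_117, KO_214 and KO_218. Every CKO value was above every control value, at a log2 fold change of 1.31 (SE 0.45, exact permutation p = 0.0571, limma adjusted p = 0.9999), and without KO_117 it was 0.85, no longer at an unadjusted p under 0.05.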
